A study of Homo sapiens with 18 samples.

Results

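The core histone genes that the cell switches on for DNA replication were followed in SW48, an established human line from a colon adenocarcinoma, after siRNA against the remodeller CHD4, alone or on top of siRNA against DNMT1 or the drug decitabine. They were taken as every gene of the deposited expression table whose symbol begins with HIST1, HIST2, HIST3 or HIST4 and continues with H2A, H2B, H3 or H4, which gave 65 of 23571 named genes. Linker histones were left out. By cluster these were 50 genes of HIST1, 11 of HIST2, 3 of HIST3 and 1 of HIST4. By class they were 17 H2A, 20 H2B, 13 H3 and 15 H4 genes.

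As background, the nucleosome is built from H2A, H2B, H3 and H4, and most of each protein comes from many small intronless gene copies that are transcribed together in S phase, when new DNA has to be packaged. Their mRNAs mostly end in a conserved stem-loop bound by SLBP instead of a poly(A) tail, so they are seen well only where RNA is not selected for poly(A). A few copies, such as HIST3H3 and the neighbours HIST1H2AA and HIST1H2BA, are known from the testis. CHD4 is a chromatin remodeller that works in the NuRD complex together with histone deacetylases. DNMT1 copies DNA methylation onto newly made strands, and decitabine, a nucleoside analogue, is incorporated in S phase and depletes DNMT1.

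The 18 libraries fell into 6 groups of 3. In 2 groups control siRNA or siCHD4 was given alone on days 1, 3 and 6, and RNA came from day 8. In 2 groups siDNMT1 was given on days 1, 3 and 5, followed by control siRNA or siCHD4 on days 7 and 8 and RNA on day 11. In the other 2 groups 50 nM decitabine was given on days 1, 2 and 3, with control siRNA or siCHD4 on days 1 and 2 and RNA on day 5. Total RNA, extracted with Trizol or the RNeasy kit, was freed of ribosomal RNA and sequenced with strand kept. Which library was extracted in which way is not given, so a part of the extraction in the differences cannot be told apart. Treatment and schedule cannot be told apart where siDNMT1 or decitabine is set against control siRNA alone, whereas siCHD4 and its control share a schedule within each background. Between backgrounds the siCHD4 days and the RNA day differed, so a difference between siCHD4 effects cannot be told apart from these. The labels do not say that libraries came from separate cultures, so the p-values measure the spread between these libraries only.

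CHD4 itself averaged 62.8 ± 4.78 FPKM (SD, n = 3; FPKM is the fragment number scaled to transcript length and library size) in control siRNA and 31.3 ± 7.87 in siCHD4. It averaged 68.2 ± 5.19 and 28.4 ± 1.12 FPKM with siDNMT1, and 76.2 ± 8.17 and 54.9 ± 2.06 with decitabine. DNMT1 averaged 44.7 ± 0.892 FPKM in control siRNA and 12.3 ± 1.15 in control siRNA + siDNMT1. Between 11477 and 12502 genes reached 1 FPKM per library. Read totals were not used here. Relative depth was read from the commonest log2 ratio to control siRNA replicate 0 over genes with a median under 1 FPKM. By this ratio 1 fragment was worth 2.05 more in control siRNA + decitabine replicate 0, the shallowest library, against -0.73 to 0.17 in the rest. Replicate 2 of siCHD4 and of control siRNA also stood apart in the histone genes, as given below, and the counts without both are in the closing section. Of 10 markers of colon epithelium, 3 stayed under 1 FPKM in every library. The summed level of the 10 was 2014 to 2127 FPKM in control siRNA and 1053 to 1095 in siCHD4 + siDNMT1. Most of that sum was KRT8 and KRT18, keratins of simple epithelia, with means of 805 and 884 FPKM in control siRNA and 340 and 274 in siCHD4 + siDNMT1. With siCHD4 on siDNMT1, 4 of the 7 tested markers were called higher and these 2 lower.

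With control siRNA the histone genes covered a very wide range of levels. Of the 65, 19 had a mean under 1 FPKM, and 11 of those were listed at 0 in all 3 control libraries. A further 9 had a mean of 1 to under 100 FPKM, 21 of 100 to under 1000 and 16 of 1000 or more. In 57 genes at least 3 of the 18 libraries reached 1 FPKM, and these were tested. The 8 that did not were HIST1H2APS1, HIST1H4G, HIST2H2AA4, HIST2H2BA, HIST2H3A, HIST2H3D, HIST2H4A and HIST2H4B, and HIST2H3A was listed at 0 in every library. Near-identical copies can share reads, so a low value of a copy may be a matter of how reads were assigned. Of 60 members with a canonical transcript in GENCODE for GRCh37, 30 had no 50-base stretch in common with another member and 6 shared over 50% of such stretches, namely HIST1H2AI, HIST1H2AJ, HIST1H4J, HIST1H4K, HIST2H4A and HIST2H4B. The values of these 6 are uncertain. Copies absent from the expression table, such as HIST2H2AA3, were not compared, so members with less sharing may be uncertain too. The tested members that rose from near 0 and are described below shared no such stretch where a transcript was found, and HIST1H2BI shared 2.54%. HIST1H2BG, HIST1H2BF, HIST1H4F, HIST1H4B and HIST2H2BC had no transcript to compare, and HIST2H2BF shared 36.1%.

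**Figure D1:**
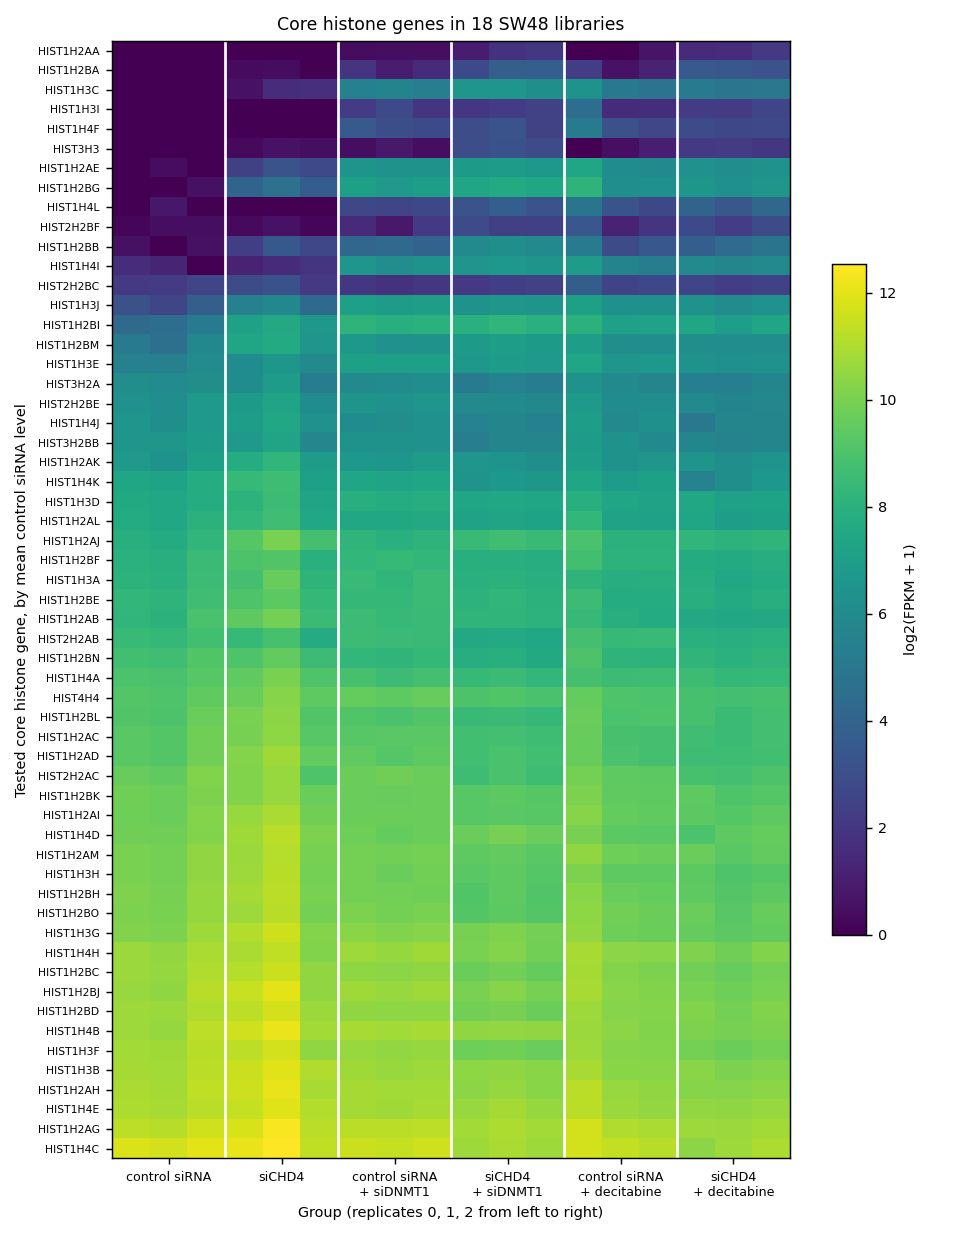
Level of each of the 57 tested core histone genes in each of the 18 libraries as log2(FPKM + 1), from 0 (dark) to the highest level (yellow); rows are ordered by the mean in control siRNA and white lines separate the 6 groups of 3 libraries. The upper rows are dark in control siRNA and brighten in the groups with siDNMT1 or decitabine, while the lower rows are bright throughout and brightest in siCHD4 replicates 0 and 1.

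Because H2A and H2B genes often sit head to head and share the DNA between their starts, these stretches are shown for the pair that was near 0 in control siRNA and raised most with siDNMT1 (HIST1H2BG and HIST1H2AE), for a pair that was already on (HIST1H2AJ and HIST1H2BM), for the testis pair, and for an abundant pair for contrast (HIST1H2BC and HIST1H2AC). Each is the plus strand from RefSeq, build GRCh38.p14, 5′ to 3′, and the first gene of each name runs to the left. Capitals mark matches on either strand to 4 short motifs. TATAAA stands for the TATA box, while CCAAT is the box of that name. ATTTGCA is most of the octamer element of H2B promoters, whereas GGTCCG is the core of an element of H4 promoters. The stretches lie at chr6:26216689-26216920, chr6:27814778-27815021, chr6:25726563-25726776 and chr6:26123927-26124171, and no match overlaps another.
HIST1H2BG/HIST1H2AE: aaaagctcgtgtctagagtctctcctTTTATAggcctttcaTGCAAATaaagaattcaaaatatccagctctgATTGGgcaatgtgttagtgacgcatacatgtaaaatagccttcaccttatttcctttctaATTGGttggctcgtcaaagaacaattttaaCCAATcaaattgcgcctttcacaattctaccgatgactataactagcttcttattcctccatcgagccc
HIST1H2AJ/HIST1H2BM: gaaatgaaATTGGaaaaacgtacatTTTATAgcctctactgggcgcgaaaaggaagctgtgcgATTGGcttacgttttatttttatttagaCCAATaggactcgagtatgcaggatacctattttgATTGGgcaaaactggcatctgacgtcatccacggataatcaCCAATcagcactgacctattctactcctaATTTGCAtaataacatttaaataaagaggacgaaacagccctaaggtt
HIST1H2AA/HIST1H2BA: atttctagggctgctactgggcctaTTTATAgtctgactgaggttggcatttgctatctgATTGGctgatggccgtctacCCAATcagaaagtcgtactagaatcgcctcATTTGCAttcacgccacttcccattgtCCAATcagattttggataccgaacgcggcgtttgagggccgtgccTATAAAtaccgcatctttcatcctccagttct
HIST1H2BC/HIST1H2AC: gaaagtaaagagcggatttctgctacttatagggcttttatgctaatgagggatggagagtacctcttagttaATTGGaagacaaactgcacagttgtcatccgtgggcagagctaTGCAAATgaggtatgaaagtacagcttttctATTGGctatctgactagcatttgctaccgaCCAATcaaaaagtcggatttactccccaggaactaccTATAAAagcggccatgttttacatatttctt

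The pair that stayed near 0 in control siRNA and the abundant pair both hold 1 TATA box, 3 CCAAT boxes and 1 octamer match, in 232 and 245 bases. The testis pair has 2 TATAAA matches, 1 for each direction. For the H3 and H4 copies that rose most, for HIST1H2BI and for HIST3H3, the 250 bases before the start are shown on the strand of the gene, marked in the same way. They lie at chr6:26045134-26045383, chr6:27139032-27139281 and chr6:26272681-26272930 on the plus strand and at chr1:228425361-228425610 on the minus strand of GRCh38.p14.
HIST1H3C: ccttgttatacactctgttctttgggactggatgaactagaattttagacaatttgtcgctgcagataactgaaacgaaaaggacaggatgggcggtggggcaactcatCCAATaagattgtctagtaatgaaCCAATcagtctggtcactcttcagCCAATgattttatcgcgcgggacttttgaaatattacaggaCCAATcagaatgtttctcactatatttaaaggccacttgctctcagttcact
HIST1H4I: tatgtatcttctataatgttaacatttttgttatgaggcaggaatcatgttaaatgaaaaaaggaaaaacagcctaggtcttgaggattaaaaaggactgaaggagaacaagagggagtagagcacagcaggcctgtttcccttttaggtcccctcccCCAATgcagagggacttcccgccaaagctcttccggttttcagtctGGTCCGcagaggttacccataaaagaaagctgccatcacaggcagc
HIST1H2BI: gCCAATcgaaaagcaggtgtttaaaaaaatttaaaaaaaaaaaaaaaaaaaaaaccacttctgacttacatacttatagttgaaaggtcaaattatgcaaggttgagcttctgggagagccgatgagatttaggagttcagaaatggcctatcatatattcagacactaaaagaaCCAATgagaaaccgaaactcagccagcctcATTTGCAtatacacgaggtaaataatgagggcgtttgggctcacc
HIST3H3: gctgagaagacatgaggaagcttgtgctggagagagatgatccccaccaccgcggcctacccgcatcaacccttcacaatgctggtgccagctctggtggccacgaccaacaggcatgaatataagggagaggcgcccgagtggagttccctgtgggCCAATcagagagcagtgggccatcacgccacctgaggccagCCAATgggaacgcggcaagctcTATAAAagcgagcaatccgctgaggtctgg

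Over the 57 members with a RefSeq window from 250 bases before to 50 after the start, CCAAT on either strand was found in all 15 H2A, all 18 H2B and all 11 H3 windows and in 3 of 13 H4 windows. It was found in 34.6% of the 35116 windows of the table. ATTTGCA was in 11 H2A, 14 H2B, 1 H3 and 0 H4 windows, against 4.2% of all windows. GGTCCG was in 12 of 13 H4 windows and in 1 window of each other class, against 11.3% of all windows. TATAAA was in 39 of the 57, against 11.5%. The number of CG dinucleotides per window had a median of 12.5 in the 16 members under 1 FPKM in control siRNA, 9.5 in the 14 at 1000 FPKM or more, and 14.0 over all windows. So the classes differed in these letters, and the members with the lowest and the highest control levels overlapped in CG number, with 3 to 27 and 4 to 17 per window.

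With siDNMT1 a subset of the HIST1 copies rose and none was called lower. In control siRNA + siDNMT1 against control siRNA, 13 of the 57 tested members were called higher (adjusted p under 0.05 in limma, Benjamini-Hochberg over 12809 genes), where 6.94% of all tested genes were called higher and 4.4% lower. All 13 were in HIST1, with 1 H2A, 5 H2B, 4 H3 and 3 H4 genes. Of the tested members, 11 had a control mean under 1 FPKM and could hardly fall. HIST1H3C, HIST1H4F, HIST1H3I, HIST1H4L and HIST1H2BA passed the filter only through libraries given siDNMT1 or decitabine. The split into higher and lower calls was thus partly set by the filter, and the calls of these members add no support beyond their values. The median change of the 57 was -0.04 on the log2(FPKM + 1) scale, which all changes below use, against -0.01 over all tested genes. With quantile normalization this median of the members was 0.10. At an unadjusted p under 0.05, 15 members were higher and 1 lower. The share of all tested genes at an unadjusted p was not tabulated, so such counts, here and below, have no share beside them. All 3 siDNMT1 libraries lay above all 3 control libraries in 17 members and below in 12, where 19.4% and 22.2% of all tested genes did so.

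The H2A and H2B copies of the first printed stretch moved from near nothing to well-expressed levels. HIST1H2BG, an H2B copy whose position was not found in the GRCh37 annotation, stood at 0, 0 and 0.456 FPKM in control siRNA and at 134, 110 and 130 in control siRNA + siDNMT1. The H2A copy HIST1H2AE (chr6:26217149-26217665 of GRCh37, plus strand) stood at 0, 0.325 and 0 FPKM in control siRNA and at 89.2, 86.1 and 82.8 with siDNMT1. Both groups were far apart in both genes. HIST1H2BG rose by 6.79 ± 0.38 (SE, adjusted p = 8.86e-09 in limma) and HIST1H2AE by 6.31 ± 0.28 (adjusted p = 6.86e-10 in limma). The abundant pair printed beside them was not called: HIST1H2BC changed by -0.33 and HIST1H2AC by -0.13. Of 11 head-to-head pairs with starts 193 to 247 bases apart, 1 had both genes called higher, 2 had 1 gene called higher and 8 had none. In the testis pair only HIST1H2BA passed, and in the HIST1H2AJ and HIST1H2BM pair only HIST1H2BM passed.

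Among H3 copies HIST1H3C (chr6:26045612-26046097, plus strand) was listed at 0 FPKM in all 3 control siRNA libraries and stood at 44.8, 49.8 and 40.5 with siDNMT1. The difference was 5.52 ± 0.33 (SE, adjusted p = 1.70e-08 in limma). As this gene passed the filter only through libraries given siDNMT1 or decitabine, its call adds no support beyond the values. Among H4 copies HIST1H4I (chr6:27107061-27107457, plus strand) stood at 2.01, 1.43 and 0 FPKM in control siRNA and at 93.1, 70.9 and 86.4 with siDNMT1. It rose by 5.43 ± 0.38 (SE, adjusted p = 9.91e-08 in limma). So each of the 4 classes had at least 1 copy that went from 2.01 FPKM or less to 40.5 FPKM or more, and in none of the 4 did the groups overlap. The other called members were HIST1H3J (3.83), HIST1H2BB (3.73), HIST1H2BI (3.36), HIST1H4F (3.12), HIST1H4L (2.39), HIST1H3I (2.30), HIST1H2BA (1.48), HIST1H3E (1.43) and HIST1H2BM (1.27). The call of HIST1H2BA was lost without control siRNA + siDNMT1 replicate 0 (adjusted p = 0.0595), that of HIST1H3I without control siRNA + siDNMT1 replicate 1 (adjusted p = 0.0548), and that of HIST1H2BM without control siRNA + siDNMT1 replicate 0 or control siRNA replicate 1 (adjusted p = 0.0514 and 0.0617, limma).

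Decitabine was set against the same 3 control libraries, so its values are given beside those of siDNMT1 and not as a second support. It called 14 members higher and 0 lower, where 9.6% of all tested genes were called higher and 8.63% lower. With quantile normalization 15 were higher and 4 lower, beside 945 and 920 of the 12809 tested genes. At an unadjusted p under 0.05, 2 members were lower. Members near 0 in control siRNA could hardly fall here either. HIST2H2BF too passed the filter only through libraries given siDNMT1 or decitabine. Its call, and those of HIST1H3C, HIST1H4F, HIST1H3I, HIST1H4L and HIST1H2BA, add no support beyond the values. The median of the 57 was -0.14, against -0.02 over all tested genes. HIST1H2BG stood at 288, 75.9 and 77.9 FPKM in control siRNA + decitabine and HIST1H2AE at 172, 66.5 and 63.4. HIST1H3C stood at 87.1, 32.4 and 26 FPKM and HIST1H4I at 119, 48.0 and 37.4. In all 4 genes replicate 0, the shallowest library, was the highest of the 3, and replicates 1 and 2 still lay far above every control library.

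The changes with decitabine were 6.73 ± 0.38 for HIST1H2BG, 6.37 ± 0.28 for HIST1H2AE, 5.43 ± 0.33 for HIST1H3C and 4.97 ± 0.38 for HIST1H4I (SE, adjusted p = 1.14e-08, 8.47e-10, 2.51e-08 and 3.15e-07 in limma). HIST1H4F stood at 36.3, 7.59 and 5.41 FPKM, HIST1H4L at 28.6, 8.56 and 5.55, and HIST1H3I at 21.6, 1.81 and 2.14, so replicate 0 carried most of the mean of these 3. The 10 other called members ranged from 1.21 (HIST1H3E) to 3.67 (HIST1H4F), and 1 of them, HIST2H2BF with a change of 1.78, belongs to HIST2. HIST1H2BM was no longer called without control siRNA replicate 1 (adjusted p = 0.0546 in limma). Fitted on the 2 groups alone, 9 members were called higher, beside 552 of the 12809 tested genes. HIST2H2BF, HIST1H3I, HIST1H2BA, HIST1H2BM and HIST1H3E then missed the threshold (adjusted p = 0.102, 0.107, 0.0966, 0.0964 and 0.0564 in limma). All 3 decitabine libraries lay above the controls in 14 members and below in 2, where 16.9% and 17.7% of all tested genes did so.

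**Figure D2:**
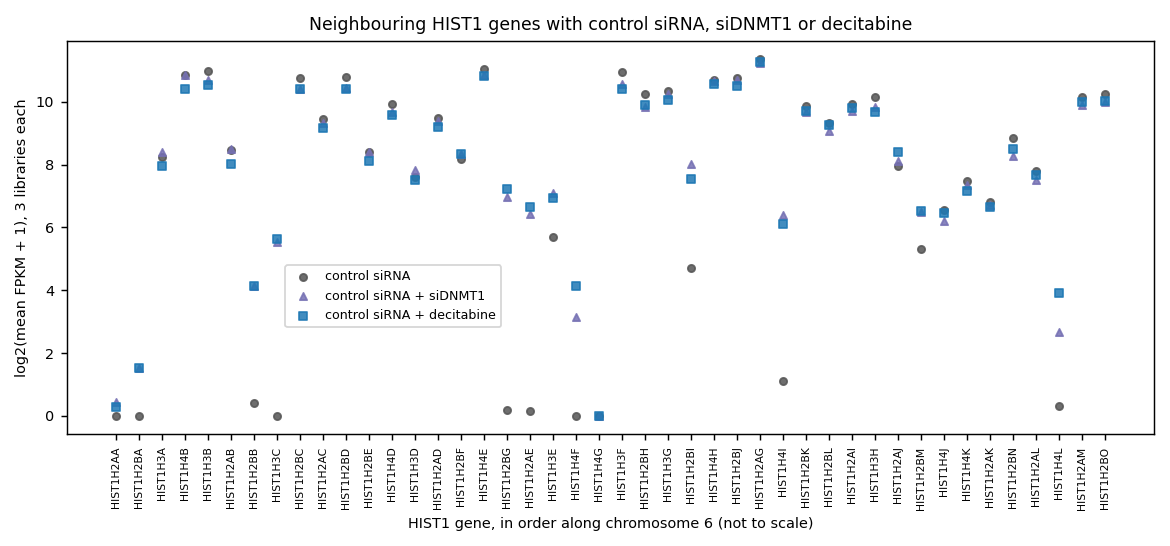
Mean level over 3 libraries, as log2(mean FPKM + 1), of the 44 HIST1 genes with a RefSeq start, in their order along chromosome 6 and not to scale, in control siRNA (circles), control siRNA + siDNMT1 (triangles) and control siRNA + decitabine (squares). HIST1H3C, next to HIST1H2BB, the neighbours HIST1H2BG and HIST1H2AE, and HIST1H4I sit at the bottom in control siRNA and above 5 in both other groups.

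In their order along chromosome 6, HIST1H2BB and HIST1H3C follow each other, as do HIST1H2BG, HIST1H2AE, HIST1H3E and HIST1H4F, and all 6 were called higher with siDNMT1 and with decitabine. HIST1H2AD and HIST1H2BF, a head-to-head pair of the same cluster, changed by -0.07 and 0.19 with siDNMT1 and by -0.30 and 0.16 with decitabine, none of it called. The most abundant member of each class over all libraries was likewise not called with siDNMT1 or decitabine. These were HIST1H2AG (H2A, 2472 FPKM on average), HIST1H2BJ (H2B, 1616), HIST1H3B (H3, 1783) and HIST1H4C (H4, 2853).

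With CHD4 depleted alone, 11 HIST1 copies were called higher, among them copies near 0 in control siRNA, and no member was called lower. Of the 11 calls, 7 held with each single library left out. In siCHD4 against control siRNA, 11 members were called higher and 0 lower, where 9.58% of all tested genes were called higher and 9.71% lower. At an unadjusted p under 0.05, 23 were higher and 0 lower. All 11 were in HIST1, with 4 H2A, 4 H2B, 2 H3 and 1 H4 gene. Members near 0 in control siRNA could hardly be called lower. The median change of the 57 was 0.47, against 0.00254 over all tested genes. The abundant members were raised in siCHD4 replicates 0 and 1 and not in replicate 2, as given below. All 3 siCHD4 libraries lay above all 3 control libraries in 9 members and below in 0, where 16.6% and 16.9% of all tested genes did so.

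HIST1H2BG stood at 15.2, 25.5 and 12.1 FPKM in siCHD4, a change of 3.97 ± 0.38 (SE, adjusted p = 9.19e-06 in limma). HIST1H2AE stood at 4.27, 8.15 and 5.87 FPKM, a change of 2.66 ± 0.28 (adjusted p = 2.20e-05 in limma). Both genes of this pair were thus above every control library, and both were below every library that received siDNMT1 or decitabine. HIST1H2BB (H2B, chr6:26043455-26043941, minus strand) stood at 0.486, 0 and 0.485 FPKM in control siRNA and at 4.04, 10.1 and 5.44 in siCHD4. It changed by 2.45 ± 0.44 (SE, adjusted p = 0.00145 in limma). HIST1H3C, listed at 0 in control siRNA, stood at 0.552, 2.03 and 2.20 FPKM, with a difference of 1.30 ± 0.33 (adjusted p = 0.0134 in limma) that missed the threshold without siCHD4 replicate 2 (adjusted p = 0.0540). HIST1H4I, HIST1H4F, HIST1H4L and HIST1H3I, which rose with siDNMT1, were not called. HIST1H4I stood at 1.28, 1.79 and 2.72 FPKM in siCHD4, overlapping the control libraries. HIST1H4F and HIST1H3I were listed at 0 in all 6 libraries of this comparison, and HIST1H4L in all 3 siCHD4 libraries.

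Copies that were already on in control siRNA also rose with siCHD4. HIST1H2BI (H2B, chr6:26273159-26273640, plus strand) stood at 18.9, 22.3 and 33.5 FPKM in control siRNA and at 142, 191 and 101 in siCHD4, a change of 2.48 ± 0.26 (SE, adjusted p = 1.95e-05 in limma). HIST1H3J, an H3 copy, went from 7.62, 5.15 and 12.8 FPKM to 44.9, 56.2 and 18.4. The neighbours HIST1H2BM and HIST1H2AJ, the pair printed second above, rose together. HIST1H2BM stood at 36.0, 23.4 and 55.9 FPKM in control siRNA and at 163, 199 and 93.6 in siCHD4. HIST1H2AJ stood at 237, 207 and 300 FPKM and at 596, 1017 and 460, and shares 66.3% of its 50-base stretches with another member. The changes were 2.04 ± 0.34 for HIST1H3J, 1.97 ± 0.30 for HIST1H2BM and 1.41 ± 0.26 for HIST1H2AJ (SE, adjusted p = 1.00e-03, 4.23e-04 and 0.00179 in limma). No siCHD4 library overlapped a control library in these 4 genes.

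In the remaining 3 called members the groups overlapped. HIST1H2AB stood at 299, 267 and 481 FPKM in control siRNA and at 678, 972 and 376 in siCHD4, HIST1H2AK at 105, 86.5 and 139 against 213, 302 and 115, and HIST1H4D at 891, 915 and 1142 against 1703, 2435 and 1077. In each, siCHD4 replicate 2 lay below control siRNA replicate 2. Their changes were 0.89, 0.85 and 0.75 (adjusted p = 0.0341, 0.0367 and 0.0466 in limma). The calls of HIST1H2AB and HIST1H2AK were lost without control siRNA replicate 0 or 1, or siCHD4 replicate 0 or 1 (adjusted p up to 0.136 and 0.143). The call of HIST1H4D was lost in 13 of 18 fits that left out 1 library (adjusted p up to 0.164). Fitted on the 2 groups alone, 5 members were called higher, beside 272 of the 12809 tested genes. HIST1H3J, HIST1H2BM, HIST1H2AJ and HIST1H3C then missed the threshold (adjusted p = 0.0733, 0.0547, 0.0657 and 0.0606 in limma), as did HIST1H2AB, HIST1H2AK and HIST1H4D (adjusted p = 0.227, 0.223 and 0.207 in limma). Without siCHD4 replicate 2 the number of members called higher was 36 in place of 11, and without that library and control siRNA replicate 2, a setting chosen after seeing the data, it was 39. The numbers over all tested genes in these fits were not tabulated. Of 11 head-to-head pairs, 2 had both genes called higher with siCHD4, 1 had 1 gene (HIST1H2AK, with HIST1H2BN not called) and 8 had none.

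**Figure D3:**
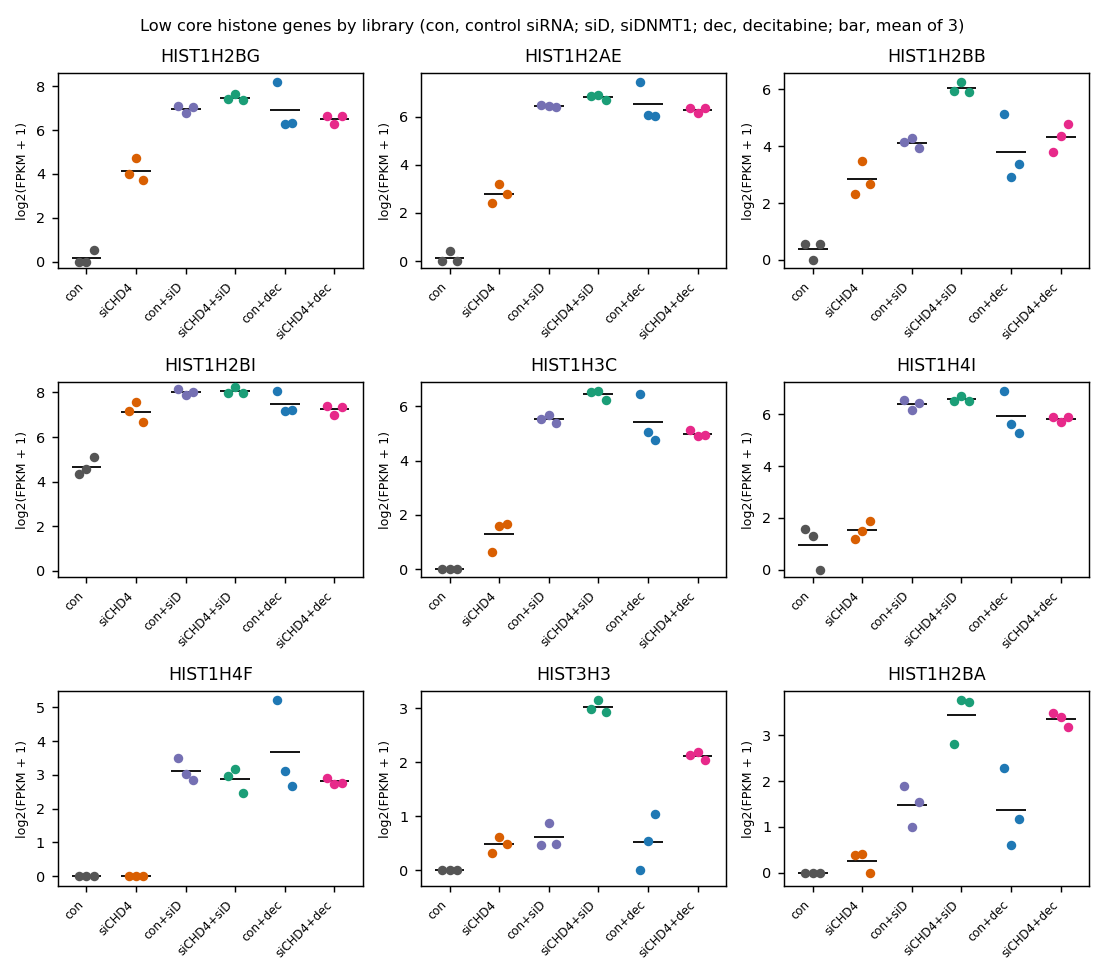
Level of 9 low core histone genes in each library as log2(FPKM + 1), with 1 panel per gene, 1 point per library and a bar at the mean of each group of 3; con is control siRNA, siD is siDNMT1 and dec is decitabine. HIST1H2BG, HIST1H2AE, HIST1H2BB and HIST1H3C step up in their group means from control siRNA to siCHD4 and again to the groups with siDNMT1 or decitabine, HIST1H4I and HIST1H4F stay low in siCHD4, and HIST3H3 is highest where siCHD4 was given with siDNMT1 or decitabine.

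On the siDNMT1 background, in the fit of all 18 libraries, siCHD4 called histone members in each direction less often than over all tested genes. It called 5 members higher and 10 lower, where 24.8% of all tested genes were called higher and 24.6% lower. Fitted on the 2 groups alone, 12 members were called higher and 39 lower, beside 3972 and 4292 of the 12809 tested genes. The median of the 57 was -0.39, against -0.01 over all tested genes, and was -0.14 with quantile normalization. All 3 siCHD4 + siDNMT1 libraries lay above all 3 controls of that background in 12 members and below in 39, where 33.7% and 36.4% of all tested genes did so. At an unadjusted p under 0.05, 6 members were higher and 19 lower.

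The members that rose included all 3 testis copies. HIST3H3, the testis H3 gene (chr1:228612546-228613061, minus strand), was listed at 0 FPKM in all 3 control siRNA libraries and stood at 0.378, 0.832 and 0.400 in control siRNA + siDNMT1 and at 6.90, 7.91 and 6.60 in siCHD4 + siDNMT1. The change was 2.41 ± 0.19 (SE, adjusted p = 2.51e-07 in limma). HIST1H2BA, the testis H2B gene (chr6:25727005-25727573, plus strand), stood at 2.71, 0.993 and 1.91 FPKM in control siRNA + siDNMT1 and at 6.07, 12.7 and 12.2 in siCHD4 + siDNMT1. Its head-to-head partner HIST1H2AA (chr6:25723625-25726790, minus strand) went from 0.353, 0.389 and 0.374 FPKM to 1.02, 2.59 and 3.08. They changed by 1.97 ± 0.34 and 1.17 ± 0.23 (SE, adjusted p = 3.26e-04 and 8.98e-04 in limma). In these 3 genes the groups did not overlap, at levels of at most 12.7 FPKM. HIST1H2AA reached 1 FPKM only in libraries given siCHD4 with siDNMT1 or decitabine. HIST3H3 did so only there and in control siRNA + decitabine replicate 2. Both genes passed the filter only through groups where they were high, so their calls add no support beyond the values. HIST1H2BB rose from 16.7, 18.4 and 14.2 FPKM to 61.0, 75.6 and 59.4, a change of 1.93 ± 0.44 (adjusted p = 0.00215 in limma). HIST1H3C rose by 0.92 (adjusted p = 0.0320 in limma), a call lost without any 1 of the 3 control siRNA + siDNMT1 libraries, or without siCHD4 + siDNMT1 replicate 0 or 1 (adjusted p = 0.0508 to 0.0870).

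The pair HIST1H2BG and HIST1H2AE, already on in this background, was not called again. HIST1H2BG stood at 171, 201 and 162 FPKM in siCHD4 + siDNMT1 beside 134, 110 and 130 in its control, and HIST1H2AE at 115, 120 and 103 beside 89.2, 86.1 and 82.8. In both, the 3 depleted libraries lay above the 3 controls, by 0.51 and 0.38.

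The 10 members called lower came from HIST1, HIST2 and HIST3. HIST2H2AB, an H2A copy (chr1:149859019-149859515, minus strand), stood at 386, 374 and 357 FPKM in control siRNA + siDNMT1 and at 191, 199 and 177 in siCHD4 + siDNMT1. It fell by 0.97 ± 0.21 (SE, adjusted p = 0.00138 in limma). HIST2H2AC fell by 0.98 and HIST1H3F by 0.78, and these 3 were the falls that held with each single library left out. The other 7 were HIST3H2BB (-0.80), HIST1H2BO (-0.76), HIST1H4C (-0.74), HIST1H2BC (-0.69), HIST3H2A (-0.68), HIST1H4H (-0.63) and HIST1H2BD (-0.57). With quantile normalization HIST3H2A, HIST1H4H and HIST1H2BD were not called (adjusted p = 0.0655, 0.176 and 0.154 in limma). With 1 library left out the number called lower ran from 3 to 25. It was 3 without control siRNA + siDNMT1 replicate 0 or 2 or siCHD4 + siDNMT1 replicate 0 or 2, 5 without control siRNA + siDNMT1 replicate 1, 17 without control siRNA + decitabine replicate 0, 18 without siCHD4 replicate 1 and 25 without siCHD4 replicate 2.

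With decitabine, siCHD4 called 3 members higher and 0 lower, where 3.26% of all tested genes were called higher and 1.31% lower. All 3 were the testis copies. HIST3H3 stood at 0, 0.445 and 1.06 FPKM in control siRNA + decitabine and at 3.36, 3.57 and 3.13 in siCHD4 + decitabine. HIST1H2BA went from 3.90, 0.531 and 1.26 FPKM to 10.3, 9.65 and 8.14, and HIST1H2AA from 0, 0 and 0.658 to 1.79, 2.00 and 3.19. None of the 3 overlapped between groups, and none exceeded 10.3 FPKM. The changes were 1.60 ± 0.19 for HIST3H3, 2.01 ± 0.34 for HIST1H2BA and 1.47 ± 0.23 for HIST1H2AA (SE, adjusted p = 9.85e-05, 0.00250 and 0.00136 in limma). This comparison uses other libraries than the one on siDNMT1. However, HIST3H3 and HIST1H2AA passed the filter only through libraries given siCHD4 with siDNMT1 or decitabine, so their repeat is no second support. Fitted on the 2 groups alone, HIST1H2BA and HIST1H2AA missed the threshold (adjusted p = 0.0931 and 0.0602 in limma).

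No other member passed the test in this background. At an unadjusted p under 0.05, 12 members were lower, and the median of the 57 was -0.42 against 0.01 over all tested genes, or -0.08 with quantile normalization. The 3 siCHD4 + decitabine libraries lay below the 3 controls in 30 members and above in 3, where 13.2% and 13.8% of all tested genes did so. Without control siRNA + decitabine replicate 0, 5 members were called higher in place of 3. Without siCHD4 replicate 2, 8 were called lower in place of 0.

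**Figure D4:**
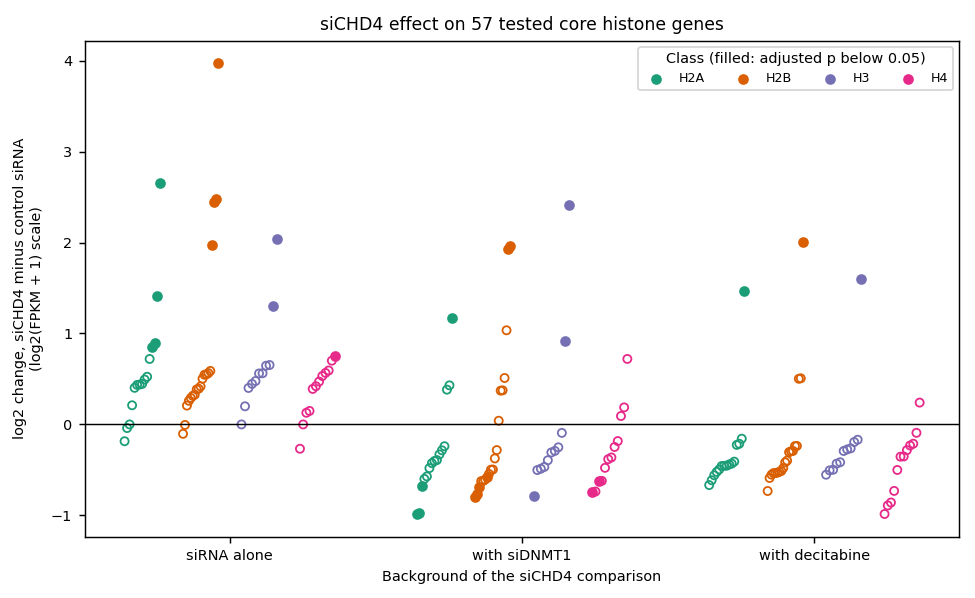
Change with siCHD4 against control siRNA of each of the 57 tested core histone genes, on the log2(FPKM + 1) scale, in each of the 3 backgrounds; colours give the class, filled points have an adjusted p under 0.05 in limma, and points are sorted by value within a class. Alone, the filled points all lie above 0, up to 3.97; with siDNMT1 they lie on both sides; with decitabine 3 lie above 0 and most open points lie below.

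The difference between siCHD4 effects was tested as an interaction. The siCHD4 schedule and the remaining CHD4 level also differed between backgrounds, and their part cannot be told apart from that of the background. With siDNMT1, the effect was lower than alone in 6 members and higher in 1, where 1.29% and 2.83% of all tested genes were called in those directions. With quantile normalization it was lower in 20 and higher in 1, beside 312 and 408 of all tested genes. With 1 library left out the number called ran from 5 to 48, with 48 without siCHD4 replicate 2 and 12 without control siRNA + decitabine replicate 0. With decitabine it was lower in 5 and higher in 1, where 0.383% and 0.773% were. With quantile normalization it was lower in 10 and higher in 0, beside 50 and 86 of all tested genes. Fitted on the 4 groups alone it called 3 members with decitabine, all lower, beside 8 of all tested genes lower and 34 higher. With 1 library left out it called 4 to 34 members, with 34 without siCHD4 replicate 2. The copies with the strongest rise alone led the lower calls, an order partly set in advance because the test subtracts the change alone. The size of these differences also rests on the log scale. In mean FPKM, HIST1H2BG rose from 0.152 to 17.6 alone and from 125 to 178 with siDNMT1, and went from 147 to 91.2 with decitabine. HIST1H2AE rose from 0.108 to 6.10 alone and from 86.0 to 113 with siDNMT1. HIST1H2BI rose from 24.9 to 145 alone and from 259 to 267 with siDNMT1. For HIST1H2BG the effect differed by -3.46 ± 0.54 with siDNMT1 and by -4.37 ± 0.54 with decitabine (SE, adjusted p = 0.00116 and 6.97e-04 in limma). For HIST1H2BI and HIST1H2AE it differed by -2.44 and -2.27 with siDNMT1 and by -2.72 and -2.87 with decitabine (adjusted p = 8.11e-04, 0.00308, 0.00140 and 0.00172 in limma). HIST1H3J and HIST1H2BM were the other members called lower in both. The call of HIST1H2BM with siDNMT1 was lost in 14 of 18 fits without 1 library, and that of HIST1H3J with decitabine in 8. HIST4H4 (-1.01) was called with siDNMT1, a call lost in 15 of 18 fits without 1 library. These interactions share the siCHD4 and control siRNA libraries. In the opposite direction the siCHD4 effect on HIST3H3 was 1.94 ± 0.27 larger with siDNMT1 (adjusted p = 3.79e-04 in limma), and with a pseudocount of 0.1 the value was 1.30 (adjusted p = 0.432). HIST1H2AA was 1.47 larger with decitabine (adjusted p = 0.0448 in limma), a call lost in 15 of 18 fits without 1 library. HIST3H3 and HIST1H2AA passed the filter only through groups where they were high.

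The summed level of all 65 members describes the abundant copies, which dominate it. It was 36777, 34295 and 48246 FPKM in control siRNA and 56655, 78877 and 34890 in siCHD4, a mean of 143% of the control mean. Replicates 0 and 1 of siCHD4 lay above every control library and replicate 2 lay below control siRNA replicate 2, so the groups overlapped. The mean was 89.6% of control in control siRNA + siDNMT1 and 65.4% in siCHD4 + siDNMT1. It was 84.7% in control siRNA + decitabine, where replicate 0 stood at 44182 FPKM and the others at 29218 and 27718, and 60.6% in siCHD4 + decitabine. In bulk RNA, fewer cells in S phase and less histone RNA per cell cannot be told apart.

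The sums of the 4 classes are given side by side, and differences between classes were not tested. In siCHD4 + siDNMT1 the sums were 67.0% of control for H2A, 61.6% for H2B, 65.9% for H3 and 67.0% for H4, and in siCHD4 + decitabine 63.3%, 61.8%, 57.2% and 58.9%. In siCHD4 they were 148%, 143%, 145% and 137%. HIST1H4C, the most abundant H4 copy, stood at 3570, 3308 and 4142 FPKM in control siRNA, at 4394, 5928 and 2556 in siCHD4, at 1654, 1972 and 1679 in siCHD4 + siDNMT1 and at 1327, 1667 and 2020 in siCHD4 + decitabine. HIST1H2AG, the most abundant H2A copy, stood at 2477, 2308 and 3177 FPKM in control siRNA, at 1782, 2032 and 1756 in siCHD4 + siDNMT1 and at 1648, 1604 and 1752 in siCHD4 + decitabine. Both were lower in every library of the combined groups than in any control siRNA library. HIST1H2BJ (H2B) and HIST1H3B (H3) ran the same way, with 1380 to 2307 and 1763 to 2433 FPKM in control siRNA, and 866 to 1223 and 1070 to 1417 FPKM over the 6 libraries of the combined groups.

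**Figure D5:**
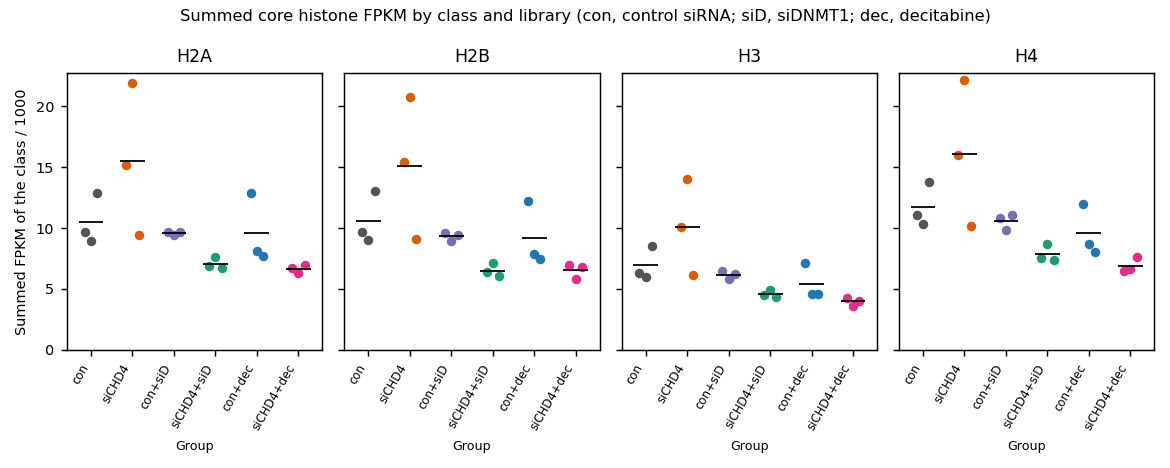
Summed FPKM of all members of each class, divided by 1000, with 1 point per library and a bar at the mean of 3; con is control siRNA, siD is siDNMT1 and dec is decitabine. In every class the 3 siCHD4 libraries are spread widest, and the libraries of siCHD4 + siDNMT1 and siCHD4 + decitabine lie below all control siRNA libraries.

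Values of other short transcripts are given beside these sums. For 255 other genes with a canonical transcript under 800 bases and a mean of at least 20 FPKM, the median deviation from the control siRNA mean (log2) was -0.69 to -0.51 over the siCHD4 + siDNMT1 libraries, beside -0.70 to -0.50 for the 41 members with a control mean of at least 50 FPKM. In siCHD4 + decitabine it was -0.47 to -0.25 beside -0.79 to -0.63, and in siCHD4 it was -0.46 to 0.17 beside -0.17 to 0.99. The part of transcript length, S-phase share and RNA handling in the levels of the abundant members was not tested.

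Outside HIST1 the members were few. In HIST2, 5 of 11 were tested, and HIST2H2AB and HIST2H2AC are the abundant ones that fell with siCHD4 on the siDNMT1 background. HIST2H2BF, at 0.137, 0.400 and 0.376 FPKM in control siRNA, stood at 9.56, 1.27 and 2.68 with decitabine. HIST2H2BC, a pseudogene in GENCODE, stayed between 2.43 and 11.9 FPKM. In HIST3, HIST3H2A and HIST3H2BB form a head-to-head pair. HIST3H2A stood at 71.4, 64.4 and 72.4 FPKM in control siRNA, at 67.3, 115 and 39.4 in siCHD4, at 60.2, 65.1 and 70.5 in control siRNA + siDNMT1 and at 36.2, 46.8 and 38.5 in siCHD4 + siDNMT1. With decitabine it stood at 86.7, 62.8 and 50.7 FPKM in the control and at 40.9, 40.8 and 50.7 with siCHD4. HIST3H2BB stood at 98.1, 97.0 and 117 FPKM in control siRNA, at 105, 157 and 54.2 in siCHD4, at 84.7, 85.2 and 79.7 in control siRNA + siDNMT1 and at 40.3, 51.3 and 51.7 in siCHD4 + siDNMT1. With decitabine it stood at 121, 82.2 and 61.9 FPKM in the control and at 52.6, 47.1 and 52.8 with siCHD4. Both were highest in siCHD4 replicate 1, and neither was called with siCHD4 alone. HIST4H4, the only member on chromosome 12 (chr12:14920933-14924065, minus strand), stood at 586, 534 and 720 FPKM in control siRNA and at 803, 1241 and 684 in siCHD4. It stood at 751, 684 and 774 FPKM in control siRNA + siDNMT1, at 529, 565 and 492 in siCHD4 + siDNMT1, at 756, 536 and 507 in control siRNA + decitabine and at 480, 439 and 468 in siCHD4 + decitabine. It was called in none of the 5 comparisons between groups.

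Genes that make, process and deposit histone mRNA and protein were read from the same fit. Beside the counts of these lists stand the shares of all tested genes called higher and lower, which were 9.58% and 9.71% with siCHD4, 24.8% and 24.6% with siCHD4 on siDNMT1, 3.26% and 1.31% with siCHD4 on decitabine, 6.94% and 4.4% with siDNMT1 and 9.6% and 8.63% with decitabine. Of 20 factors of histone gene transcription and 3′ end processing, 1 was higher and 4 lower with siCHD4, 1 and 9 with siCHD4 on the siDNMT1 background, 0 and 1 on decitabine, 0 and 3 with siDNMT1 and 1 and 5 with decitabine. SLBP, which binds the histone stem-loop, fell by 0.43 with siCHD4 alone, and ERI1, an exonuclease that trims the histone 3′ end, fell by 0.49 (adjusted p = 0.00698 and 0.0117 in limma). CPSF3, the endonuclease of the cleavage, fell by 0.46 with siCHD4 on siDNMT1 (adjusted p = 9.12e-05 in limma). The median of the list ran from -0.32 on siDNMT1 to -0.02 with siDNMT1 alone.

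Of 21 histone chaperones, 1 was higher and 2 lower with siCHD4, 2 and 9 with siCHD4 on siDNMT1, 0 and 0 on decitabine, 1 and 0 with siDNMT1 and 2 and 3 with decitabine. NPM1, a nucleolar chaperone, fell by 0.75 with siCHD4 alone (adjusted p = 0.00347 in limma), and RBBP7, shared by several chromatin complexes, fell by 0.49 with siCHD4 on siDNMT1 (adjusted p = 8.28e-05 in limma). Of 20 S-phase genes, 7 were lower with siCHD4, 18 with siCHD4 on siDNMT1, 0 on decitabine, 2 with siDNMT1 and 7 with decitabine, and 0 were higher in these 5. Their medians were -0.20, -0.72, -0.25, -0.22 and -0.25. RRM1, a subunit of ribonucleotide reductase, fell by 0.42 with siCHD4 alone and by 1.01 on siDNMT1 (adjusted p = 0.00486 and 8.15e-07 in limma). In the fit of all 18 libraries, siCHD4 on siDNMT1 called 18 of 20 S-phase genes and 10 of 57 histone members lower. Fitted on the 2 groups alone, 39 members were called lower and 12 higher, beside 4292 and 3972 of all tested genes. All 3 depleted libraries lay below all 3 controls in 39 members and above in 12. Of all tested genes, 36.4% and 33.7% did so. The S-phase genes were not counted in these ways, so the 2 lists cannot be compared by these calls alone. With siCHD4 alone the S-phase median was -0.20 and the median of the 57 was 0.47, a difference that was not tested. The siCHD4 libraries disagreed: over replicates 0, 1 and 2 the abundant members deviated by 0.51, 0.99 and -0.17 from the control siRNA mean. The other short genes deviated by -0.05, 0.17 and -0.46.

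Of 10 genes for histones made outside S phase, 7 were tested. With siCHD4 on siDNMT1, H3F3B, which encodes H3.3, rose by 0.45, while H2AFV fell by 0.40 and H2AFY by 0.40 (adjusted p = 3.07e-04, 0.00145 and 0.00359 in limma), for 1 higher and 4 lower in all, where 24.8% and 24.6% of all tested genes were. None was called with siCHD4 alone, with siCHD4 on decitabine or with siDNMT1, and 2 were lower with decitabine. Of 8 members in the table known to give polyadenylated transcripts as well, 3 fell with siCHD4 on siDNMT1, where 24.6% of all tested genes were lower, and 1 rose with decitabine, where 9.6% were higher. Markers of other cell types were near 0 in control siRNA: the sum over 5 fibroblast markers was 0.12 to 0.47 FPKM in control siRNA and 12.7 to 14.8 in siCHD4 + siDNMT1, that over 4 blood markers 0 to 0.0908 and 3.48 to 4.23, and that over 3 endothelial markers at most 0.529. The highest of these 12 was LUM, at 8.70 to 11.8 FPKM in siCHD4 + siDNMT1, and COL3A1 was listed at 0 in every library. Their part in the histone changes was not tested.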

How the data were processed

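RNA sequencing of 18 SW48 libraries was read from 1 table of FPKM values computed by the authors, which has a column for each. The submitters' processing notes name TopHat2 2.0.9, Cuffdiff 2.1.1 and hg19. The sources used here give neither the annotation nor the handling of reads from near-identical copies. Of 23599 entries, 28 carried a date in place of a name and were left out.

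The scale of the tests was log2(FPKM + 1), on which low genes change less. The 12809 genes that reached 1 FPKM in 3 or more libraries were tested with limma 3.58.1 in R 4.3.3, with 1 mean per group, all 18 libraries (12 residual degrees of freedom), a trend in the mean and two-sided p-values adjusted over all tested genes in each comparison. The procedure was tested on simulated data. No read counts were used, so no counting intervals are given. No pair of libraries held identical values. The replicate numbers (0, 1 and 2) were not used as pairs.

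Given with every library's value in that comparison are members called with siCHD4 alone and at most 4 with the smallest p in each other comparison between groups. HIST3 and HIST4 are given over all 18 libraries. At most 6 interaction calls and the top member of each class are given with values or ranges of some groups. Other called members are named with their change. The members and lists were chosen with earlier results of these data known. Alternatives were another pseudocount, 2 other filters, 2 rescalings, a replicate block, fits on the compared groups, and leaving out libraries. Positions come from GENCODE v44 for GRCh37 (62 of 65 matched) and promoter windows from RefSeq for GRCh38.p14 (57 of 65 matched).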

Additional observations from a re-analysis of the deposited data

Results flagged for a closer look

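The effect of siCHD4 differed between backgrounds in 7 members with siDNMT1 and in 6 with decitabine, by the interaction test in limma. Of all tested genes, 2.83% were called higher and 1.29% lower with siDNMT1, and 0.773% and 0.383% with decitabine. This test subtracts the change alone, so a large rise alone by itself draws a copy towards a lower value. With decitabine the change with siCHD4 differed from that alone by -4.37 for HIST1H2BG, by -2.72 for HIST1H2BI and by -2.87 for HIST1H2AE on the log2(FPKM + 1) scale. With siDNMT1 it differed by -3.46 for HIST1H2BG, by -2.44 for HIST1H2BI and by 1.94 for HIST3H3. For HIST3H3 the value was 1.30 with a pseudocount of 0.1 (adjusted p = 0.432 in limma). That gene passed the filter only through groups where it was high. In HIST1H2BG and HIST1H2AE every library of control siRNA with siDNMT1 or decitabine stood above every library of siCHD4 alone. HIST1H2BI did so with siDNMT1, at 286, 232 and 259 FPKM, and overlapped siCHD4 alone with decitabine, at 269, 142 and 147. HIST3H3 stood at 0.253, 0.532 and 0.404 FPKM in siCHD4 alone. Both interactions share the siCHD4 and control siRNA libraries, and in both the background cannot be told apart from the siCHD4 schedule and CHD4 level.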

How the results depend on the processing

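Fitted on the compared groups alone, members called higher numbered 5 with siCHD4, 12 with siCHD4 on siDNMT1, 1 with siCHD4 on decitabine and 9 with decitabine, members called lower 39 with siCHD4 on siDNMT1 and 2 with siDNMT1, and the decitabine interaction called 3. In the same order, of all tested genes 272, 3972, 131 and 552 were higher and 4292 and 1487 lower. That interaction called 34 of them higher and 8 lower. With quantile normalization, 31 were higher with siCHD4 and 8 with siCHD4 on siDNMT1, 1 was lower with siDNMT1 and 4 with decitabine, and the interactions called 21 (siDNMT1) and 10 (decitabine). Over all tested genes, 1023 and 2905 were higher and 569 and 920 lower in these comparisons. The interactions called 408 of all tested genes higher and 312 lower (siDNMT1), and 86 and 50 (decitabine). Without control siRNA replicate 2 and siCHD4 replicate 2, chosen after seeing the data, siCHD4 called 39 higher, siCHD4 on siDNMT1 called 28 lower, siCHD4 on decitabine called 8 lower, and the interactions called 47 and 41. For fits with libraries left out, the numbers over all tested genes were not tabulated, so a shift in all calls cannot be told apart. The cause of these shifts was not tested.

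With each library left out in turn, siCHD4 called 8 to 36 members higher and 0 lower, siCHD4 on siDNMT1 4 to 7 higher and 3 to 25 lower, siCHD4 on decitabine 3 to 5 higher and 0 to 8 lower, siDNMT1 11 to 15 higher and 0 to 1 lower, and decitabine 13 to 15 higher and 0 to 2 lower. The interactions called 5 to 48 with siDNMT1 (48 without siCHD4 replicate 2, 12 without control siRNA + decitabine replicate 0) and 4 to 34 with decitabine (34 without siCHD4 replicate 2). Of the calls, 7 of 11, 7 of 15, 3 of 3, 10 of 13 and 13 of 14 held in all 18 such fits, and 5 of 7 and 4 of 6 for the interactions. No called change of a member given with every library's value turned its sign in the alternatives tabulated for it, while the median of the members with siDNMT1 went from -0.04 to 0.10 with quantile normalization. With that setting 9 class sums moved by over 1 SD.

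With the replicate block, members called higher and lower were 9 and 0 for siCHD4, 6 and 8 on siDNMT1, 3 and 0 on decitabine, 13 and 0 for siDNMT1 and 14 and 0 for decitabine, and the interactions called 6 and 5. In the same order, of all tested genes 1077 and 1093, 3090 and 3044, 367 and 124, 804 and 447, and 1090 and 969 were called. The interactions called 312 of all tested genes higher and 91 lower with siDNMT1, and 71 and 26 with decitabine. Same-numbered libraries of different groups had residual correlations of -0.31 to 0.126 over 45 pairs, and 2 of 18 libraries correlated best with a library of their own number, so the numbers were not taken as a pairing.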
